A study of Mus musculus with 20 samples.

Results

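In mouse regulatory T cells (Treg), 269 regions bound by Bcl11b, a zinc-finger protein that controls transcription in T cells, are described here. They were listed for Treg cells but not for the comparison cells labelled Tn, and they were still listed in Treg cells that lack Foxp3. The members were chosen by their place in the authors' lists of regions bound in chromatin immunoprecipitation and sequencing (ChIP-seq). A member is in the Treg-specific list of the comparison with Tn cells and in the common list of the comparison with Foxp3-deficient cells, called KIKO in the labels, with the same chromosome, start and end. The lists of the series hold 22081 distinct regions, of which the 269 are a part. Treg-specific regions made up 31.1% of the 6518 Treg Bcl11b regions in the Tn comparison, 2025 in number, and regions common with KIKO made up 37.7% of the 5646 in the KIKO comparison. These percentages chose the members and support nothing further. For contrast, 1756 Treg-specific regions were listed as lost in KIKO cells, and 1571 regions common with Tn cells were also common with KIKO. They are called lost Treg-only and Tn-shared kept regions below, and the members are called kept Treg-only regions.

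All cells came from C57BL/6 mice, from spleen and draining lymph nodes, and were sorted before fixation. WT Treg cells carried Foxp3-IRES-YFP-Cre, in which the Foxp3 locus drives a YFP-Cre fusion, and were sorted as CD4+YFP+. The Tn cells have the same genotype and the same sort in the labels, and the labels do not expand the name. KIKO cells carried Foxp3-GFPKO, which reports the Foxp3 locus without Foxp3 protein, and were sorted as CD4+GFP+. Bcl11b-KO Treg cells carried Bcl11b f/f with Foxp3-IRES-YFP-Cre, so that Cre is made where Foxp3 is transcribed, and were sorted as CD4+YFP+. The series has 20 samples. Bcl11b was precipitated in 3 WT Treg, 3 Tn and 2 KIKO libraries, Foxp3 in 2 WT Treg and 2 Bcl11b-KO Treg libraries, and 8 libraries are input DNA. The sources used here give neither ages nor whether libraries came from separate animals. Each list stands for a group, without scores, counts or values per replicate. The depth behind a call is therefore unknown. Intervals cover counting error alone, and a p compares regions of these lists, not conditions.

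As background, Bcl11b is required for commitment to the T lineage and acts largely with corepressor complexes such as NuRD. Foxp3 is a forkhead transcription factor that maintains the Treg programme, and in Treg cells it occupies many enhancers that other T cell factors already bind. Regions kept in KIKO cells are those where the authors' lists place Bcl11b in Treg-type cells with or without Foxp3.

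Few kept regions sat on a promoter, as held for lost Treg-only regions too, and the sequences there differed widely. RefSeq promoter sequences (GRCm38.p6, the assembly with mm10 coordinates) cover the 250 bases before and 50 after a gene start. At least 100 bases of 11 of the 269 kept regions fell in such windows, 14 windows in all. The counts were 58 of 1756 for lost Treg-only and 647 of 1571 for Tn-shared kept regions. That minimum was set after the data were seen. The 6 below are shown because they are the named kept regions closest to a start, and they run from CpG-rich to CpG-poor promoters. Each reads 5′ to 3′ on the gene's strand, with the bases inside the Bcl11b region in capitals. They are Smim15 (chr13:108044224-108044523, plus strand), Mfap3l (chr8:60655307-60655606, plus), Rpp30 (chr19:36083466-36083765, plus), Rer1 (chr4:155086304-155086603, minus), Rabggtb (chr3:153912917-153913216, minus) and Wsb1 (chr11:79254646-79254945, minus).
Smim15: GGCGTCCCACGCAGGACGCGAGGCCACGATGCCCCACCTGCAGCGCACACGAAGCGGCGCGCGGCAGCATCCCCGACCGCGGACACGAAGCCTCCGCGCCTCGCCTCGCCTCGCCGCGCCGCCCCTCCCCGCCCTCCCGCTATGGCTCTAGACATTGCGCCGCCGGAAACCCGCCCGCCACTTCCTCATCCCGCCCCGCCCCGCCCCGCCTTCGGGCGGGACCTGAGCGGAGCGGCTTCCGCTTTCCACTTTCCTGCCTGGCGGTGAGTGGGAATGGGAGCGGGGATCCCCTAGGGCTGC
Mfap3l: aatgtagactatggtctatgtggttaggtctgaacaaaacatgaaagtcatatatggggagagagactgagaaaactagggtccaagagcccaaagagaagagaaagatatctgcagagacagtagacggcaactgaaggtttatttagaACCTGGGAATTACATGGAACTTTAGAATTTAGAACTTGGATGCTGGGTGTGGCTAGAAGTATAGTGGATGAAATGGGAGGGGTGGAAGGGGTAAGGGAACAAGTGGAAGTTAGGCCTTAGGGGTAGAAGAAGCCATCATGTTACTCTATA
Rpp30: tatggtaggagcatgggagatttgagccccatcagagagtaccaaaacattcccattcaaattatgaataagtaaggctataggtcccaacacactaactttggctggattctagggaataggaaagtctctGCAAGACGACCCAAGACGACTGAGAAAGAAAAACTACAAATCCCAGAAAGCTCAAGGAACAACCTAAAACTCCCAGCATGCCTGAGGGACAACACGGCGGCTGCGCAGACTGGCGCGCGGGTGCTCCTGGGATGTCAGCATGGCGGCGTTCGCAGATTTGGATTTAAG
Rer1: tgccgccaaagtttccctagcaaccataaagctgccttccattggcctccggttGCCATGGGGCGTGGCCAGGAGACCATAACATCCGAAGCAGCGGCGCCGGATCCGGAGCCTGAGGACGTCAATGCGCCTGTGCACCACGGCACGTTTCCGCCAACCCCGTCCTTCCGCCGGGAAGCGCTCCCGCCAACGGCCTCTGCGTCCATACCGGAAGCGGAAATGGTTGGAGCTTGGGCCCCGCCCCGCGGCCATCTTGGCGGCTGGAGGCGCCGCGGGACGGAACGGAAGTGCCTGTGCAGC
Rabggtb: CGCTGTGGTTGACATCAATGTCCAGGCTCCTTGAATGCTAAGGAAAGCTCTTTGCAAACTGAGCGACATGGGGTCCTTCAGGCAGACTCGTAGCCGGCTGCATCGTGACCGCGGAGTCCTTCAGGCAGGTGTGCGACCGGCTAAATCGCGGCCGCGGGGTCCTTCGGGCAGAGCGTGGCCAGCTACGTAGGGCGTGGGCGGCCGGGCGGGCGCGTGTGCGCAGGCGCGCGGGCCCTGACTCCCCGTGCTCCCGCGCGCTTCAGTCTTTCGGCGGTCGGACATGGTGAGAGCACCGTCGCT
Wsb1: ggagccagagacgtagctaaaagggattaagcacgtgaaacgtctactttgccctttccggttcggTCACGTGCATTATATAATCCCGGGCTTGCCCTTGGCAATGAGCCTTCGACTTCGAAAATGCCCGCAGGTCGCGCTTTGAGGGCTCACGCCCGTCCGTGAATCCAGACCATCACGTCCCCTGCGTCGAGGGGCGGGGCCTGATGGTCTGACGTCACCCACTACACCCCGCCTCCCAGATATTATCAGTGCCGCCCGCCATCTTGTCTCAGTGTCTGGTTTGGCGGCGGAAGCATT

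The Smim15 window was 74.3% G and C with 41 CG pairs, and the Bcl11b region covered all of it. Rer1 and Rabggtb had 66.7% and 66.3% with 31 and 35 CG pairs, and Wsb1 had 58.0% with 25. By contrast, the Mfap3l window had 42.7% and 1 CG pair, and that of Rpp30 had 49.0% and 11. Those last 2 regions were the narrow ones, at 198 bp, while the 4 at CG-rich windows were 340 to 510 bp wide. Short motif words were searched on both strands of each window, and their matches may overlap. The GC box GGGCGG stood in 10 of the 14 windows at kept regions (71.4%, Wilson 95% interval 45.4 to 88.3) and in 46.2% of all 21263 windows of protein-coding genes. Windows at the other classes held it about as often, 70.6% of the 68 at lost Treg-only and 61.5% of the 776 at Tn-shared kept regions. The RUNX word TGTGGT stood in 4 of 14 at kept regions, 19.1% at lost, 13.8% at Tn-shared and 15.0% of all windows. For the ETS word GGAAGT these were 4 of 14, 30.9%, 43.3% and 24.8%. For the AP-1 word TGANTCA they were 2 of 14, 4.41%, 4.38% and 6.99%, and for the CTCF word CCCTC 8 of 14, 75%, 72.6% and 69.6%. The forkhead word TGTTTA stood in 0 of the 14, with an upper Wilson bound of 21.5%, in 5.88% at lost, 7.35% at Tn-shared and 11.5% of all windows. These are matches of letters in few windows and say nothing of a factor.

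The kept regions fell into a large narrow and a small wide group. Of the 269, 227 (84.4%, 79.6 to 88.2) were exactly 198 bp wide, which is the modal width of the WT Treg Bcl11b set. None had the modal width of the KIKO set, 252 bp, or of the Tn set, 226 bp. The other 42 ran from 276 to 558 bp. Width followed Foxp3 listing almost without exception, with regions matched by identical positions. The Foxp3 sets had modal widths of 220 bp in WT and 276 bp in Bcl11b-KO Treg cells. Whether the drawing of outlines alone sets this relation was not tested. In the comparison of Foxp3 between WT and Bcl11b-KO Treg cells, 0 of the 227 narrow regions and 41 of the 42 wider ones were listed. The exception was a 342 bp region 258 bp downstream of the start of Dnaja1, a heat shock cochaperone gene, named after its values were seen. Of the lost Treg-only regions, 0 of 1558 narrow and 196 of 198 other ones were listed. The counts for Tn-shared kept regions were 0 of 311 and 1102 of 1260. The sources used here do not say how outlines were merged. A narrow kept region thus has the modal WT Treg width, although its list is the one common with KIKO. Width may include KIKO calls, so the larger share over 276 bp in kept than in lost Treg-only regions, 15.2% against 8.49%, is a description without a test.

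**Figure D1:**
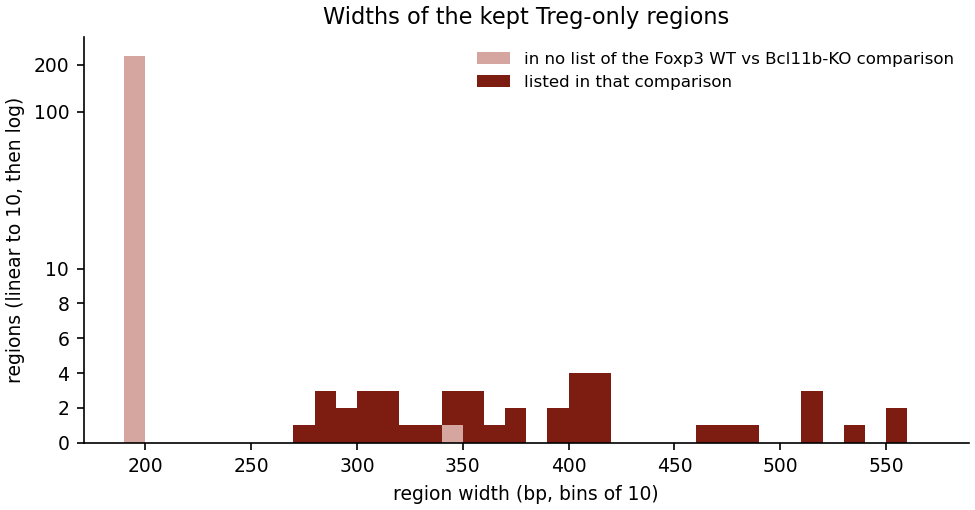
Number of kept Treg-only Bcl11b regions (vertical axis, linear to 10 and logarithmic above) by width in base pairs (horizontal axis, bins of 10). Dark bars are regions listed in the comparison of Foxp3 between WT and Bcl11b-KO Treg cells; the 227 regions at 198 bp are all unlisted there, and 41 of the 42 wider ones are listed.

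Most kept Treg-only regions carried no Foxp3 in WT Treg cells by the lists. In the comparison of Bcl11b with Foxp3, 207 of the 269 were Bcl11b-only, 59 were common with Foxp3, 2 were listed for Foxp3 only and 1 was not listed. The share common with Foxp3 was 22.2% (59 of 266, 17.6 to 27.5), against 65.5% of all Treg Bcl11b regions in that comparison. It was 81.0% (1191 of 1470) among Tn-shared kept regions (odds ratio 0.0669, 0.0478 to 0.0926, Fisher's exact test, two-sided, adjusted p = 3.1e-76). Among lost Treg-only regions it was 16.4% (287 of 1746), so that the kept regions had a slightly higher share (odds ratio 1.45, 1.04 to 2.00, exact adjusted p = 0.038). The call against lost regions ended when each gene gave 1 region (odds ratio 1.44, exact adjusted p = 0.051) and within 20 kb of a gene start (odds ratio 1.33, exact adjusted p = 0.25). All 3 classes use the WT Treg Bcl11b libraries that also chose the members.

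Split by width, the shares drew together. Among regions of 198 bp, 10.6% of kept Treg-only (24 of 227), 7.64% of lost Treg-only (119 of 1558) and 31.2% of Tn-shared kept regions (97 of 311) were common with Foxp3. In regions of other widths the shares were 89.7% (35 of 39), 89.4% (168 of 188) and 94.4% (1094 of 1159). The difference from lost regions did not pass within the narrow regions (odds ratio 1.43, exact adjusted p = 0.18) or within those over 276 bp (odds ratio 1.11, 0.327 to 4.84, exact adjusted p = 1). That from Tn-shared regions passed within the narrow ones (odds ratio 0.261, exact adjusted p = 2.8e-08) and not within those over 276 bp (odds ratio 0.377, 0.125 to 1.53, exact adjusted p = 0.26). These width classes follow from the same calls, so width and Foxp3 listing cannot be told apart.

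**Figure D2:**
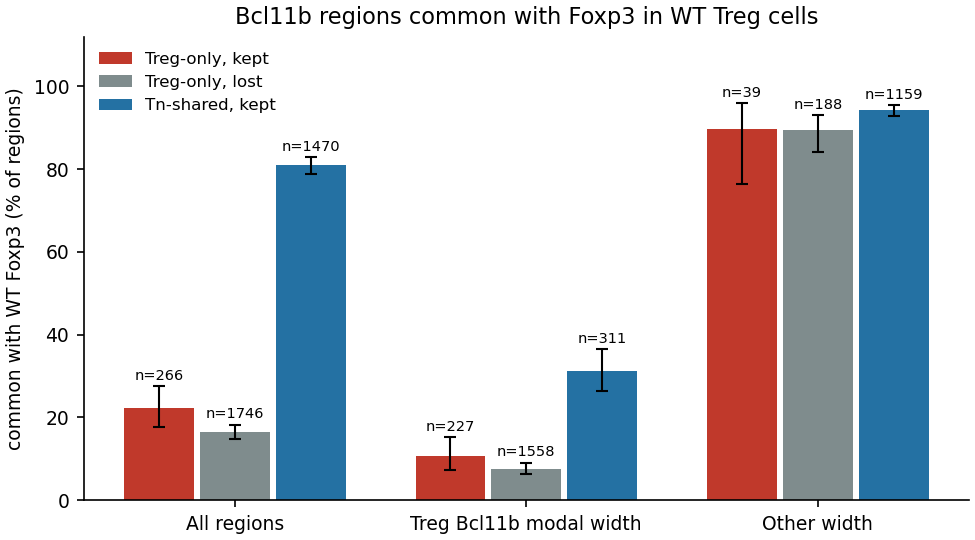
Percent of Bcl11b regions listed as common with WT Foxp3 (vertical axis) for kept Treg-only, lost Treg-only and Tn-shared kept regions, over all regions, over those of the Treg Bcl11b modal width of 198 bp and over other widths. Bars are shares with Wilson 95% intervals and n is the number of regions; the kept Treg-only bars stand at 22.2%, 10.6% and 89.7%.

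In the comparison of Foxp3 between WT and Bcl11b-KO Treg cells, 41 kept Treg-only regions were listed (15.2%, 11.4 to 20.02). The share was 70.1% of Tn-shared kept and 11.2% of lost Treg-only regions, against 43.8% of all Treg Bcl11b regions of the Tn comparison. Since no region of 198 bp was listed there in any class, these shares follow the widths and are given without a test. Over 276 bp, 97.6% of kept Treg-only regions (40 of 41), 100% of lost and 92.9% of Tn-shared ones were listed. Of the 41 listed, 28 were common to both genotypes, 5 were specific to WT and 8 to Bcl11b-KO cells. WT Foxp3 was thus lost without Bcl11b at 5 of 33 kept regions (15.2%, 6.65 to 30.9). It was lost at 25% of such lost Treg-only and 25.4% of Tn-shared regions, and at 31.3% of all WT Foxp3 regions. Neither difference passed (odds ratio 0.537, 0.152 to 1.54, and 0.525, 0.157 to 1.40, exact adjusted p = 0.30 and 0.28), and with 33 regions the intervals are wide.

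Foxp3 was listed in Bcl11b-KO cells at 36 of the 269 kept regions (13.4%), at 8.77% of lost Treg-only and at 52.7% of Tn-shared kept regions, which again follows the widths. Over 276 bp the order against Tn-shared regions turned, with 85.4% (35 of 41) of kept, 80.5% of lost and 71.7% of Tn-shared ones (odds ratio against the last 2.30, exact adjusted p = 0.26). The regions specific to WT Foxp3 included those at Cmss1, Cdc42se2, Prkg1, a cGMP-dependent kinase gene, and Dclk1, a kinase gene. The Dclk1 region was listed for Foxp3 only in the comparison with Bcl11b, which goes against its 2 Bcl11b lists. The 8 specific to Bcl11b-KO lay at Il10, Ulk1, Golm1, Padi1, Plekhb2, Dpep2, Mboat2 and Rab20. Of these, Prkg1, Dclk1 and the last 6 were named after their values were seen. The 2 comparisons did not give WT Foxp3 the same members. Of 61 listed for it in the comparison with Bcl11b and 33 in that with Bcl11b-KO, 32 were in both, and 5 of the 61 were listed as specific to Bcl11b-KO in the other. Another 24 of the 61 were 198 bp wide, and no kept region of that width was listed in the comparison of genotypes.

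Kept Treg-only regions lay away from gene starts, at distances like those of the lost ones. The median distance from a region's centre to the nearest start of a protein-coding gene was 12.1 kb, against 10.5 kb for lost Treg-only and 0.577 kb for Tn-shared kept regions. Within 1 kb of a start lay 26 of 260 (10%, 6.92 to 14.2), 14 of them upstream and 12 downstream. The share was 9.55% (163 of 1706) for the lost Treg-only class (odds ratio 1.05, 0.652 to 1.64, exact adjusted p = 0.82). It was 52.4% (806 of 1537) for Tn-shared kept regions (odds ratio 0.101, 0.0637 to 0.154, exact adjusted p = 3.5e-41). The 9 members on chromosome 18 have no start in the table used and are left out of these counts. Members at other genes without a start there stay in, with the distance to the start of another gene. A region inside Rp1, for example, counted as 13802 kb from a start. The difference from Tn-shared regions remained within the 198 bp width, at 6.39% against 20.4% (odds ratio 0.267, exact adjusted p = 1.6e-05). It also remained over 276 bp, at 29.3% against 64.3% (odds ratio 0.230, exact adjusted p = 8.8e-05). An alternative chosen after the data were seen used either end of any protein-coding gene. Within 1 kb of an end lay 11.9% of kept Treg-only regions, 13.9% of lost ones and 59.1% of Tn-shared ones.

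The lists thin out sharply 20 kb from a gene start. Over all regions, 349 centres lay 19 to 20 kb from the nearest start and 83 lay 20 to 21 kb from it, and among kept Treg-only regions the counts were 7 and 1. No source used here states a limit on distance. Within 20 kb lay 75.8% of kept Treg-only regions, 80.0% of lost ones and 83.1% of Tn-shared ones. The start table covers 17492 of 21900 protein-coding genes, and part of any distance beyond 20 kb may be to a start that it lacks.

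**Figure D3:**
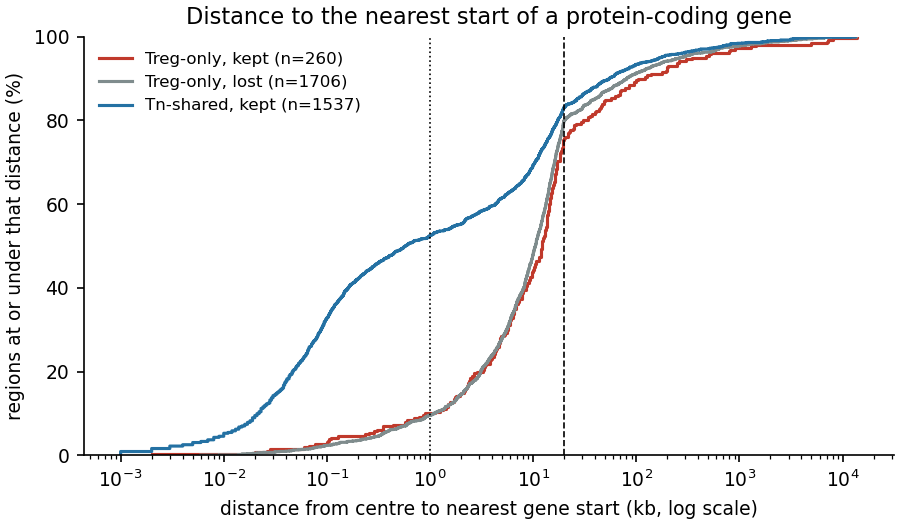
Cumulative percent of regions (vertical axis) by distance from the centre to the nearest start of a protein-coding gene (horizontal axis, kilobases, log scale) for 260 kept Treg-only, 1706 lost Treg-only and 1537 Tn-shared kept regions. The dotted line marks 1 kb, where the curves stand at 10%, 9.55% and 52.4%, and the dashed line marks 20 kb, where all 3 bend.

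Centres of 146 kept regions (54.3%, 48.3 to 60.1) lay inside a protein-coding gene. That was less than the 61.9% of the lost Treg-only class (odds ratio 0.731, 0.560 to 0.955, exact adjusted p = 0.034) and the difference from the 58.4% of Tn-shared kept ones did not pass (odds ratio 0.847, 0.647 to 1.11, exact adjusted p = 0.28). Within the 198 bp width that difference passed, at 53.7% against 65.9% (odds ratio 0.601, exact adjusted p = 0.011). Exons and introns were not used here. The difference from lost regions was no longer called among regions within 20 kb of a start (odds ratio 0.894, exact adjusted p = 0.54) or with 1 region per gene (odds ratio 0.758, exact adjusted p = 0.069).

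Over all widths, kept regions had a neighbour within 10 kb less often than Tn-shared ones. A different WT Foxp3 region lay within 10 kb of 38.3% of kept Treg-only (103 of 269), 42.2% of lost Treg-only and 49.6% of Tn-shared kept regions (odds ratio against the last 0.629, exact adjusted p = 0.0018). A different Treg Bcl11b region lay within 10 kb of 24.5% (66 of 269), 27.6% and 32.0% (odds ratio against the last 0.690, exact adjusted p = 0.034). Neither differed from lost Treg-only regions past the threshold (odds ratio 0.850 and 0.855, exact adjusted p = 0.28 and 0.36). The contrast with Tn-shared regions turned over 276 bp, where 58.5% against 48.3% had a Foxp3 neighbour (odds ratio 1.51) and 43.9% against 30.7% a Bcl11b neighbour (odds ratio 1.77), neither past the threshold (exact adjusted p = 0.39 and 0.26). For a Bcl11b neighbour, the call against Tn-shared regions ended at 5 kb (odds ratio 0.771, exact adjusted p = 0.26), and at 50 kb a difference from lost regions was called (54.6% against 62.2%, odds ratio 0.731, exact adjusted p = 0.031). The Bcl11b neighbours come from the WT Treg Bcl11b lists that also chose the members and both other classes, so these values describe those lists alone. Of the 269, 13 had a lost Treg-only region within 10 kb and 4 within 2 kb. Only 8 neighbouring pairs of members were at most 100 kb apart.

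**Figure D4:**
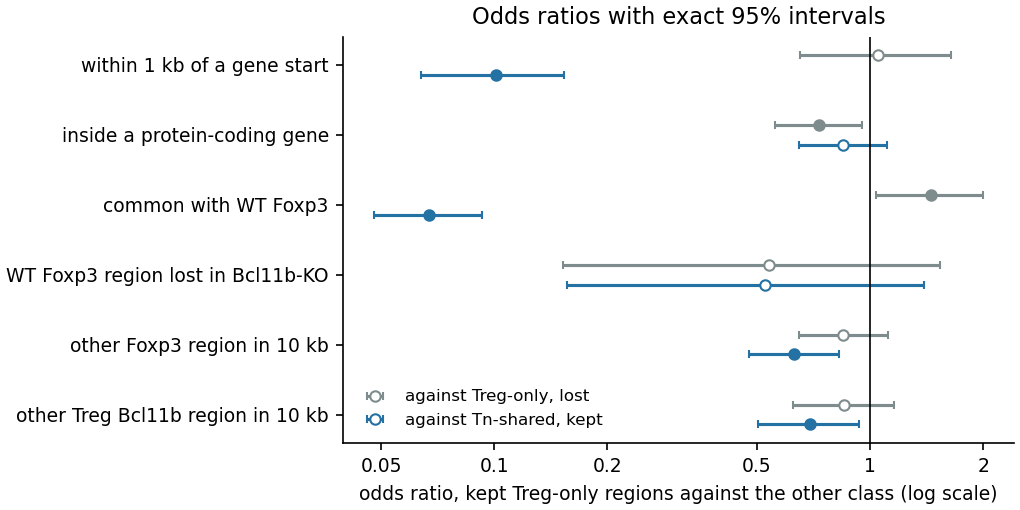
Odds ratios (horizontal axis, log scale) with exact 95% intervals for 6 properties of kept Treg-only regions, against lost Treg-only regions (grey) and Tn-shared kept regions (blue). Filled points have an adjusted p under 0.05; against lost regions all 6 lie between 0.537 and 1.45, and against Tn-shared regions the lowest are Foxp3 sharing at 0.0669 and gene starts at 0.101.

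The Treg signature list had kept regions at Il10 and Tnfrsf9, T helper effector genes at Cxcr5 and Maf, IL-2 and STAT5 genes at Il2rb and TCR signalling genes at Cd3e. Il10, which encodes an anti-inflammatory cytokine, had its kept region 1.02 kb from the gene at chr1:131025849-131026132. That region was common with WT Foxp3 in the comparison with Bcl11b but specific to Bcl11b-KO in the Foxp3 comparison. It was 1 of 2 Treg Bcl11b regions among the 8 regions of the gene, 7 of which were listed for WT Foxp3. Tnfrsf9 encodes the costimulatory receptor 4-1BB. Its kept region, at chr4:150915086-150915597 and 4.81 kb upstream of the start, was common with Foxp3 in both genotypes. A second Treg-only region at Tnfrsf9, inside the gene at chr4:150924231-150924727, was lost in KIKO cells. Il2rb encodes the beta chain of the IL-2 receptor and showed the same contrast at closer range. Inside it, the kept region at chr15:78495112-78495437 lay 1222 bp from a lost Treg-only region at chr15:78493577-78493890. Both were common with Foxp3 in the comparison with Bcl11b. In the other comparison Foxp3 was listed in both genotypes at the kept one and as specific to Bcl11b-KO at the lost one.

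Cxcr5, a chemokine receptor gene of follicular T cells, had a kept region with its centre 0.124 kb beyond the gene, at chr9:44526389-44526747, with Foxp3 in both genotypes. Its other 3 Treg Bcl11b regions were shared with Tn, and 2 of these were lost in KIKO cells. Maf encodes a bZIP transcription factor that drives Il10 in T cells. Its single Bcl11b region was the kept one, chr8:115707412-115707609, 0.616 kb from the gene, beside 3 Foxp3-only regions that were all common to WT and Bcl11b-KO. The nearest of those lay 304 bp away. Cd3e encodes a signalling chain of the T cell receptor complex. Its kept region, chr9:45009860-45010057, was 347 bp upstream of the start and common with Foxp3 in the comparison with Bcl11b, though in neither genotype of the Foxp3 comparison.

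NF-kB pathway genes held 3 members. Nfkbie encodes an inhibitor that holds NF-kB dimers in the cytoplasm. Its kept region, chr17:45558078-45558389, lay inside the gene 2.53 kb downstream of the start, with Foxp3 in both genotypes, while the region at the start itself was shared with Tn. Bcl10 encodes the adaptor that links antigen receptors to NF-kB. Its kept region, chr3:145918547-145918744, lay 5.62 kb upstream of the start and had no Foxp3, and the region at the start was again Tn-shared and kept. Tnip2 encodes a partner of the NF-kB inhibitor A20. Its kept region, chr5:34506990-34507187, lay inside the gene 6.89 kb from the start and was common with Foxp3 only in the comparison with Bcl11b. Its other Bcl11b region was common with Tn and lost in KIKO cells.

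Of the remaining listed genes, Mgat4a, which encodes an N-glycan branching enzyme, had 9 regions, all listed for WT Foxp3. The kept one, chr1:37479121-37479421, was 1 of 2 with Treg Bcl11b. Numb, an antagonist of Notch signalling, had 1 kept region without Foxp3, chr12:83874987-83875184, 1.73 kb downstream of the start. All 3 Foxp3-only regions of Numb were lost in Bcl11b-KO. Dlg2, a synaptic scaffold gene on the list of neural genes, had 1 kept and 1 lost region at chr7:90490713-90490910 and chr7:92137835-92138032, both narrow and without Foxp3.

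**Figure D5:**
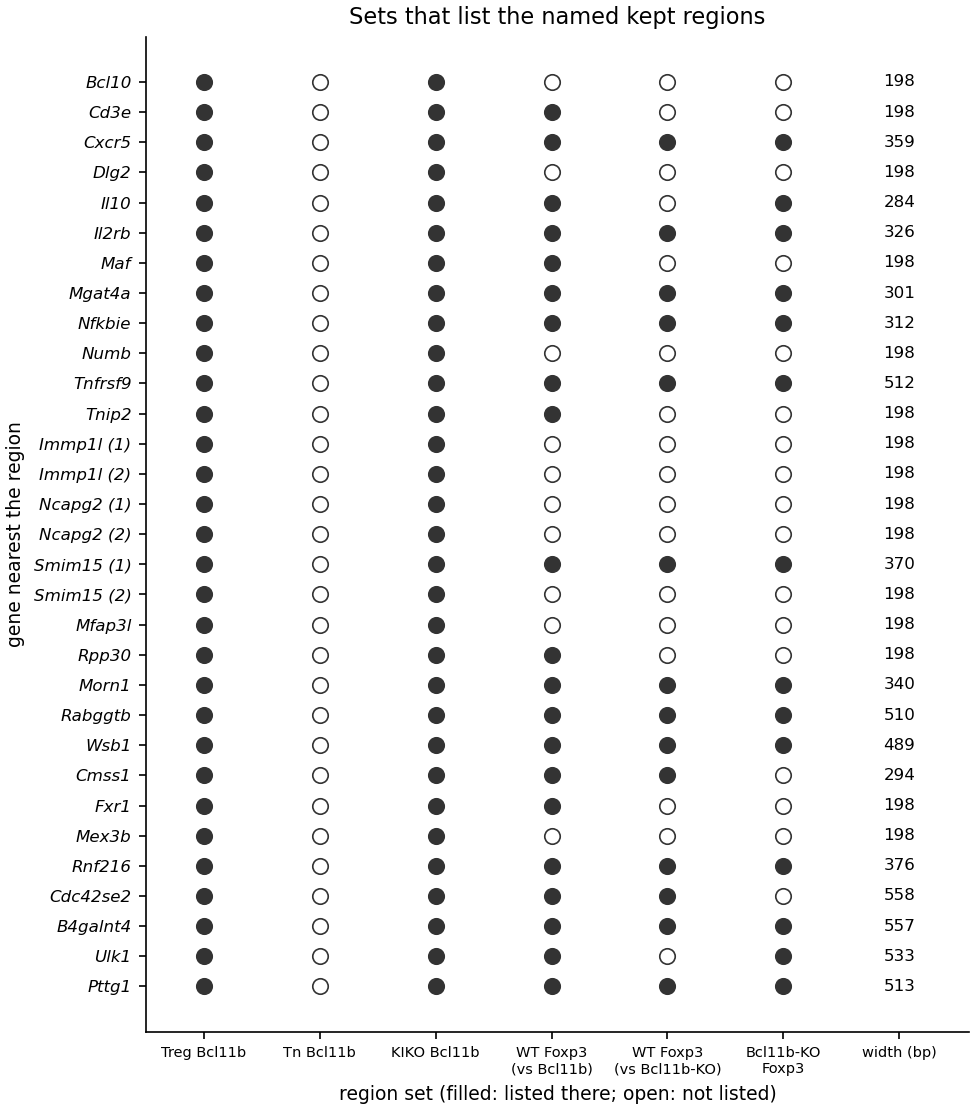
Named kept Treg-only regions (rows, by nearest gene) and the region sets that list them (columns; filled circles are listed, open circles are not), with the width of each region in base pairs. WT Foxp3 has 2 columns because the comparisons with Bcl11b and with Bcl11b-KO differ; regions of 198 bp have open circles in both columns of the Foxp3 comparison.

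By count, kept regions fell at the listed genes in about the same share as other Treg Bcl11b regions. Members of any of the 18 lists took 13 of 269 kept regions (4.83%), 417 of 8589 regions on the Treg side of any Bcl11b comparison (4.86%), 67 lost Treg-only and 59 Tn-shared kept regions (3.82% and 3.76%). NF-kB genes took 3 of the 269, against 31 of the 8589 (0.361%). The Treg signature took 2 (0.743%, against 34 or 0.396%) and T helper effector genes took 2 (0.743%, against 13 or 0.151%). The lists of suppressive mediators, TCR signalling, IL-2 with STAT5, the TNF and TNF receptor superfamily, and chemokine receptors with homing took 1 each (0.372%), against 17, 52, 41, 36 and 42 of the 8589 in that order. So did AP-1, BATF and IRF genes, the Notch pathway, glycosyltransferases and neural genes, against 31, 22, 37 and 4. Naive and T lineage genes took 0, although they held 54 of the 8589, and TGF-beta and SMAD genes took 0 with 22. Markers of B cells, of myeloid cells and of CD8 and NK cells took 0 kept regions, and 3, 4 and 3 of the 8589. Of the listed genes, 27 stand on several lists, and no list was tested.

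The kept regions were spread thinly over the genome. The 259 with a protein-coding gene within 100 kb fell at 255 genes, and no gene had more than 2. Genes with 2 were Smim15, a small membrane protein gene, Ncapg2, a condensin subunit gene, Immp1l, a mitochondrial peptidase gene, and 1 predicted gene. At Smim15 the wide region over the start was listed for Foxp3 in both genotypes and the narrow one 1.57 kb downstream was not. That wide region is, with the one at Dclk1, 1 of the 2 listed for Foxp3 only in the comparison with Bcl11b, which goes against its 2 Bcl11b lists. Both regions of Ncapg2 and of Immp1l were narrow and without Foxp3. Of the 255 genes, 73 had no other region of the series, 63 also had a region common with Tn, and 32 also had a lost Treg-only region. Such counts were not made for genes of the other classes. Besides Il2rb, Tnfrsf9 and Dlg2, the genes named by rule with a lost Treg-only region were Rpp30, Cmss1, Rnf216 and Mfap3l. Golm1, Dclk1, Cdk6 and Cyb5r4, which are named outside the rule, also had a lost region.

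Of the 10 kept regions nearest a start, 7 were common with Foxp3 in the comparison with Bcl11b, beside 22.2% of all kept regions and 65.5% of all Treg Bcl11b regions. Mfap3l, a microfibril-associated protein gene, was nearest, with a centre 2 bp upstream of its start and no Foxp3. That start lies inside the annotated span of Mfap3l (chr8:60632825-60676731). Rpp30, a ribonuclease P subunit gene, and Rer1, a Golgi retrieval gene whose start lies inside Morn1, followed at 20 and 26 bp upstream. Rabggtb, which encodes a Rab geranylgeranyl transferase subunit, lay at 28 bp upstream and Wsb1, a SOCS box gene, at 60 bp downstream. Rer1, Rabggtb and Wsb1 had Foxp3 in both genotypes. Cmss1 at 76 bp upstream had Foxp3 in WT cells alone, Rnf216, a ubiquitin ligase gene, at 105 bp upstream had it in both, and Fxr1, an RNA-binding protein gene, at 100 bp downstream had it in the comparison with Bcl11b only. Mex3b, another RNA-binding protein gene, at 103 bp downstream, had no Foxp3 within the region but a Foxp3-only region 54 bp away.

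The 5 widest kept regions were all common with WT Foxp3, as were 89.7% of kept regions wider than 198 bp. They lay at Cdc42se2, a Cdc42 effector gene (558 bp), B4galnt4, a glycosyltransferase gene (557 bp), Ulk1, an autophagy kinase gene (533 bp), Pttg1, the securin gene (513 bp), and Tnfrsf9 (512 bp). Foxp3 was listed in both genotypes at B4galnt4, Pttg1 and Tnfrsf9, in WT alone at Cdc42se2 and as Bcl11b-KO-specific at Ulk1. At the other end, the 5 kept regions farthest from a protein-coding gene were all narrow and Bcl11b-only. Of all kept regions, 84.4% were narrow and 77.0% were Bcl11b-only. They lay 248 to 1437 kb from a gene, 2 on chromosome 14 and 1 each on chromosomes 2, 12 and 13.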

How the data were processed

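The authors deposited 12 lists of regions in mm10, 3 per comparison for 4 comparisons, each with chromosome, start and end. These deposited files have no header and hold positions only, with no score or signal. The submitters' processing notes name, without roles, HISAT2 2.1.0, HOMER 4.10.1, deepTools, SAMtools 1.3, FastQC, cutadapt 1.12 and Trim Galore 0.4.2. Not given in those notes or the labels are the peak threshold, the rule for specific and common, and any pooling of replicates. Depth per library is unknown.

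Of 47553 rows, 127 repeats were dropped. Another 25 entries stood in 2 lists of 1 comparison and were given no class in it. Regions were matched by identical positions, since none overlaps another. Gene positions were those of RefSeq on GRCm38.p6 (21900 protein-coding genes), assigned to the nearest within 100 kb of the centre, and starts from RefSeq promoter windows for 17492 of them. Shares have Wilson 95% intervals. Fisher's exact test, two-sided, gave conditional odds ratios with exact 95% intervals, and p-values were adjusted by Benjamini-Hochberg over 18 tests, 9 properties against 2 classes, with a threshold of 0.05. Over all widths, no p is given for width, since KIKO calls can enter it. The same holds for the shares listed in the Foxp3 comparison of genotypes or in Bcl11b-KO, which follow width. These shares are among the 18 tests, and their calls in the section on processing carry the same limit.

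Regions of 1 gene are not independent. Members, lists and tests were chosen with earlier results of these data known. Gene names come from a rule. It takes every gene of the lists with a member, every gene with 2 members other than predicted ones, the 10 members nearest a start, the 5 widest, and the 5 farthest from a gene. A few genes are not reported here. The lists hold 367 names, of which 366 matched. Steps were tested on simulated data. Tests used scipy 1.17.1, tables pandas 2.3.3 and numpy 2.4.6, and plots matplotlib 3.10.9, under Python 3.11.15.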

Additional observations from a re-analysis of the deposited data

How the results depend on the processing

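All values here are odds ratios of kept Treg-only regions. Against Tn-shared kept regions, the lower share near a gene start kept its direction and its call under every alternative run. Differences from lost Treg-only regions did not. Of 138 alternative odds ratios, 98 kept direction and call, 16 lost the call, 3 gained one and 21 changed direction, and where no cause is named the cause was not tested.

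With 1 region per gene, the calls against lost regions ended for Foxp3 sharing (1.44) and for lying inside a gene (0.758). Matching Foxp3 lists within 500 bp of the edges ended the calls against lost regions for Foxp3 sharing (1.37) and Foxp3 in Bcl11b-KO (1.42). Over 1 kb from a start, listing in the Foxp3 comparison was called against lost regions (1.66). For a neighbouring Bcl11b region within 5 kb, the ratio against lost regions turned (1.05) and the call against Tn-shared ones ended (0.771), and within 50 kb that against lost regions was called (0.731). Starts of any annotated gene turned the ratio near a start against lost regions (0.947).

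Leaving out every modal width leaves 41 members. Against lost regions, ratios turned for Foxp3 sharing (0.972), listing in the Foxp3 comparison (0.245), a Bcl11b neighbour (1.66) and starts (0.798), and calls ended for genes (0.664) and Foxp3 in Bcl11b-KO (1.73). Against Tn-shared regions, they turned for genes (1.05), Foxp3 in Bcl11b-KO (2.88), listing (5.09), a Foxp3 neighbour (1.44) and a Bcl11b neighbour (1.69), and the call for Foxp3 sharing ended (0.459). Regions over 276 bp are also 41 members. Against lost ones, ratios turned for listing (0), a Bcl11b neighbour (1.64) and starts (0.855), and calls ended for Foxp3 sharing (1.11), genes (0.593) and Foxp3 in Bcl11b-KO (1.41). Against Tn-shared ones, they turned for genes (1.04), Foxp3 in Bcl11b-KO (2.30), listing (3.06), a Foxp3 neighbour (1.51) and a Bcl11b neighbour (1.77), and the call for Foxp3 sharing ended (0.377).

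Chosen after seeing the data, either end of any gene turned the ratio near a start against lost regions (0.837). Within the 198 bp width the call for Foxp3 sharing against lost regions ended (1.43) and that for genes against Tn-shared ones began (0.601). Within 20 kb of a start, calls against lost regions ended for Foxp3 sharing (1.33), genes (0.894) and Foxp3 in Bcl11b-KO (1.43), and that for genes against Tn-shared regions turned (1.04). Without modal widths the width measure gave no finite ratio. Edge matching applies only to Foxp3 lists. No paired analysis was possible because the lists hold no value per replicate, and no replicate could be left out for the same reason. Depth is unknown.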

Other observations

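Olfactory receptor genes, which T cells are not known for, lay nearest to 14 of the 269 kept Treg-only regions (5.20%), to 40 of the 1756 lost ones (2.28%) and to 11 of the 1571 Tn-shared kept ones (0.700%). The share at olfactory receptor genes over all regions was not computed. More than 100 kb from any protein-coding gene lay 10 kept (3.72%), 27 lost (1.54%) and 7 Tn-shared regions (0.446%). Of all 22081 regions, 21850 had a protein-coding gene within 100 kb. No kept region was on chromosome X, against 8 lost Treg-only (0.456%) and 8 Tn-shared kept regions (0.509%). At such shares few of 269 regions would lie there. These counts were chosen after the values were seen and were not tested. The closest neighbours of opposite outcome were at Cyb5r4, a cytochrome b5 reductase gene, where a kept and a lost Treg-only region were 1062 bp apart. Il2rb (1222 bp), Golm1 (1687 bp) and Rpp30 (1695 bp) followed.

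Among wide kept regions with Foxp3 listed in both genotypes were those at Atf4, a stress response transcription factor gene, 288 bp downstream of the start, at Ptger2, a prostaglandin E2 receptor gene, 602 bp downstream, and at Pmaip1, which encodes a proapoptotic protein, 10.7 kb from the gene. Further ones lay inside Cdk6, a cell cycle kinase gene, and Gna15, a G protein subunit gene. These were named after their values were seen.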
